A study of Mus musculus with 4 samples.

Results

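The transcription factors of the goblet and secretory lineage of the intestine were followed in RNA from sorted cells of the adult mouse colon. They were Atoh1, Spdef, Gfi1, Creb3l1, Creb3l4, Xbp1, Bhlha15, Foxa1, Foxa2 and Foxa3, chosen by gene name among the non-control probes. All 10 genes were on the array, with 11 probes, out of 28307 gene names in all. All 10 were among the 14645 genes tested, and every member had signal well above background in both RNAs on each array where it had a value.

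The mice carried the Lgr5_EGFP-ires-CreERT2 knock-in, in which GFP is driven by the promoter of Lgr5, the stem cell receptor of the crypt base. One RNA was labelled as coming from GFP-positive stem cells and is called Lgr5-GFP-labelled RNA. The other was labelled as coming from cells with a high level of CD24, a surface protein detected with a PE-conjugated antibody, and is called CD24hi-labelled RNA. The study describes that second sort as a way to take a subset of goblet cells, and the comparison asks how the sorted populations differ. From each RNA, 300 ng was labelled and both were hybridised together on 4 arrays of 2 colours. They formed 2 replicates, each with a first array (Lgr5-GFP RNA in Cy3) and a dye swap (Lgr5-GFP RNA in Cy5). Nothing in the labels tells if the replicates are separate animals or pools, so the p-values cover the spread between these samples alone, and that spread may be technical.

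In the intestine, Notch signalling holds Atoh1 silent through Hes1, and a crypt cell that escapes it switches Atoh1 on and becomes secretory. Below Atoh1, Gfi1 and Spdef direct cells to the goblet and Paneth fates, and Foxa1 and Foxa2, which open chromatin, are needed for goblet and enteroendocrine cells. Xbp1, the Creb3-like factors and Bhlha15 build the secretory apparatus: Xbp1 answers the load of unfolded protein in the endoplasmic reticulum (ER), Creb3l1 and Creb3l4 are held in the ER membrane and cut free in the Golgi, and Bhlha15 (also called Mist1) enlarges the secretory capacity of exocrine cells.

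The sort markers ran against the labels. The log2 ratio of Lgr5-GFP-labelled RNA over CD24hi-labelled RNA was -3.41 ± 0.29 for Lgr5 and 2.32 ± 0.01 for Cd24a, which encodes CD24 (SD, n = 2 replicates). Neither gene had a value on the dye swap of replicate 1, so replicate 1 is not dye-balanced for them. Among the stem cell markers tested, Axin2 alone had a value on that array, at -1.38. All 5 stem cell markers tested were lower in Lgr5-GFP-labelled RNA, with a median of -2.09. Muc2, the gel-forming mucin of goblet cells, was higher there at 3.39 ± 1.12. Each direction is therefore that of the labels, and with the labels exchanged every higher becomes lower. The dye swap of replicate 1 also stood apart. Before any correction its median gene spot had a signal of 4377 in Lgr5-GFP-labelled RNA and 1358 in CD24hi-labelled RNA. The other arrays had 94.2 to 164 and 110 to 197. On the dye swap of replicate 1, 75.92% of 43379 gene spots carried an outlier mark and were left out, against 2.6% to 2.98% on the other arrays. Across genes, which are not independent replicates, it correlated with the others at r of 0.722 to 0.763, and these among themselves at 0.924 to 0.959. Over 4673 genes with a value on all arrays the SD of its log2 ratios was 0.645, against 0.968 to 0.979 elsewhere. For the members with a value on it, the mean without it is given beside the result.

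The probes show which part of a transcript a value stands for. The 4 below are shown because the results of Atoh1, Xbp1, Creb3l1 and Bhlha15 are read against them, and all have at least 1 frame without a stop codon over their 60 bases. They are printed as the files give them, and the remaining probes of the members are not printed. Positions are of build mm9, per the file annotation. The Atoh1 probe lay at chr6:64679913-64679972 (+ strand) and the Xbp1 probe at chr11:5424970-5425029 (+). The Creb3l1 probe was placed over chr2:91823548-91826335 (-), a span of 2788 bases, so it joins exons. Bhlha15 had a pair of probes that gave different values, and the one shown, at chr5:144952447-144952506 (+), starts at position 630 of the transcript.
Atoh1: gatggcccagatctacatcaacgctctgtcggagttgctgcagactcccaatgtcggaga
Xbp1: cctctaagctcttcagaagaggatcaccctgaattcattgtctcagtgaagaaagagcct
Creb3l1: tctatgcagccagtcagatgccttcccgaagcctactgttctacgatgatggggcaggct
Bhlha15: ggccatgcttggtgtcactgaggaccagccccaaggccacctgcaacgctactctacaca

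Of the 10 factors, 9 were higher in Lgr5-GFP-labelled RNA, whose sort markers contradict its label, and 0 were lower. Their median log2 ratio was 2.24, against -0.07 over all genes tested. Of all genes tested limma called 47.2%, with 21.8% higher and 25.5% lower, at a Benjamini-Hochberg adjusted p under 0.05 (8014 genes had an unadjusted p under 0.05). Foxa2 was the factor that was not called. The calls depend on how a fault of 1 array was handled: with 77 non-uniform local backgrounds of the first array of replicate 2 kept in the background correction, limma called 0 genes (5190 at an unadjusted p under 0.05) and 0 of the 10 factors, whose median log2 ratio was then 1.65. Here and throughout, fewer cells of a type and less RNA per cell cannot be told apart.

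**Figure D1:**
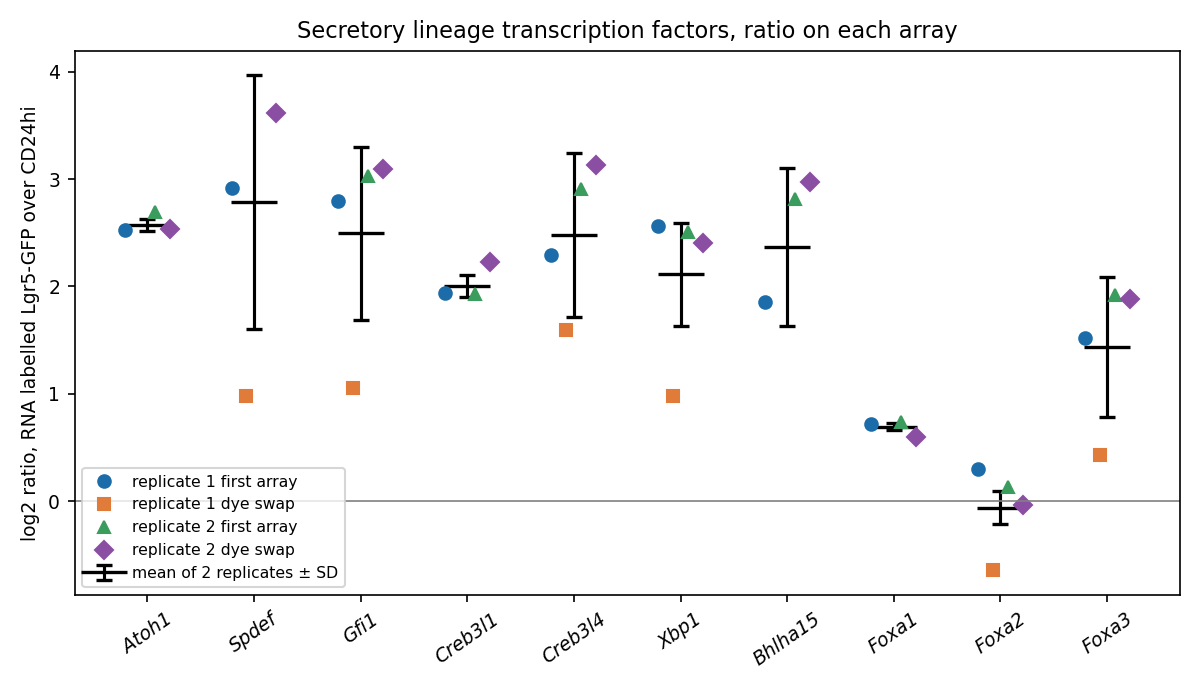
The log2 ratio of Lgr5-GFP-labelled RNA over CD24hi-labelled RNA (vertical axis) is drawn for the 10 transcription factors on each array, with the mean of 2 replicates and its SD. Of the factors with a value on the dye swap of replicate 1 (squares), each had its lowest ratio there, and Foxa2 alone lies around 0.

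Atoh1, the factor that commits a crypt cell to the secretory fate, was 5.94-fold higher in Lgr5-GFP-labelled RNA. Its normalised signal there was 1201, 1006 and 897 on the first array of replicate 1, the first array of replicate 2 and the dye swap of replicate 2, against 208, 156 and 155 in CD24hi-labelled RNA. The populations did not overlap on these arrays, and the lowest Lgr5-GFP signal was above the highest CD24hi signal. Here and below, overlap is judged across arrays, which differ in brightness. The share of all genes tested without overlap was not counted. The log2 ratios were 2.53, 2.69 and 2.53, and the mean was 2.57 ± 0.06 (SD, n = 2; limma, adjusted p = 5.93e-04). The spot on the dye swap of replicate 1 was marked and gave no value, so replicate 1 is not dye-balanced for this gene. Read with its mark ignored, that spot had a ratio of 0.20. The mean ratio of Atoh1 was exceeded by 92 of 14645 genes.

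Gfi1, a zinc finger repressor downstream of Atoh1 that keeps goblet and Paneth cells from the enteroendocrine fate, was 5.63-fold higher in Lgr5-GFP-labelled RNA. Its signal there was 1885.5, 2514, 1163 and 1312 (replicate 1 first and swapped, then replicate 2 first and swapped), against 272, 1210.3, 142 and 154 in CD24hi-labelled RNA. The log2 ratios were 2.79, 1.05, 3.03 and 3.09. The dye swap of replicate 1 is far below the other arrays, which lie close together. Its CD24hi signal reached the range of the Lgr5-GFP signals of other arrays, but was below its own Lgr5-GFP signal. The mean was 2.49 ± 0.81 (n = 2; limma, adjusted p = 0.00169), and 2.93 without that array.

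Spdef, an ETS factor that drives the maturation of goblet cells, had the largest mean ratio of the 10 in this processing. It was 6.88-fold higher in Lgr5-GFP-labelled RNA and was exceeded by 65 of 14645 genes. Its signal there was 40832, 27835 and 27740 on both arrays of replicate 1 and the dye swap of replicate 2. In CD24hi-labelled RNA it was 5404, 14132 and 2259.7. The populations did not overlap on these arrays. The log2 ratios were 2.92, 0.98 and 3.62, and the mean was 2.78 ± 1.18 (n = 2; limma, adjusted p = 0.00309). Its spot on the first array of replicate 2 was left out for a marked local background. With such spots kept, a choice made after the data were seen, that array gave 3.77 and the mean was 2.82. Without the dye swap of replicate 1 the mean was 3.27. With the scanner software's processed signals the order turned, with Spdef at 2.82 and Atoh1 at 3.07, and the difference between these factors was not tested.

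**Figure D2:**
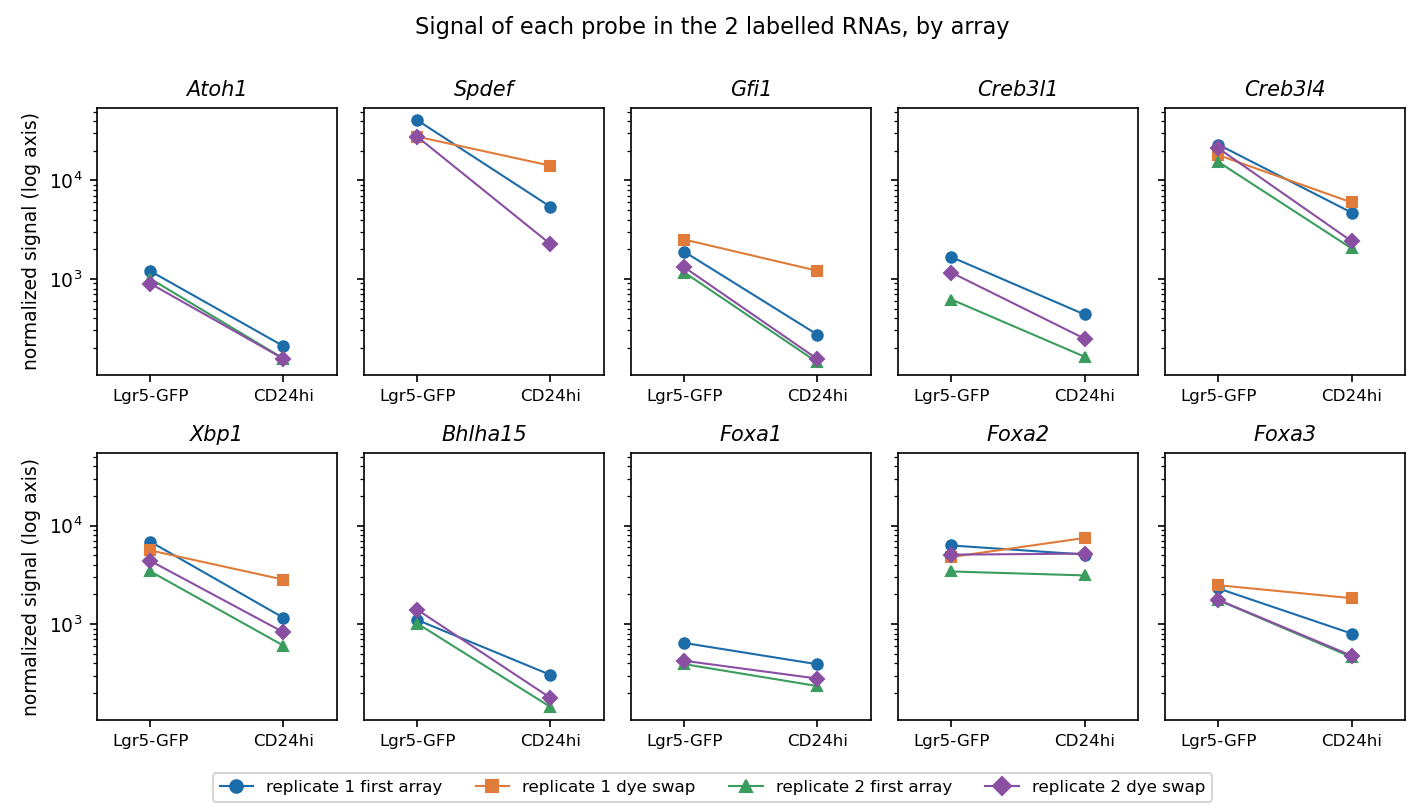
Normalised signal (log axis) of each factor's probe in Lgr5-GFP-labelled RNA (left of each panel) and CD24hi-labelled RNA (right), with 1 line for each array with a value. Lines fall to the right in 9 panels, are flattest on the dye swap of replicate 1 (orange squares) where it has a value, and run level or cross for Foxa2; levels are not comparable between panels.

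Xbp1, whose messenger is cut by the ER stress sensors Ire1 alpha and beta to give the active factor, was 4.33-fold higher in Lgr5-GFP-labelled RNA. Its signal there was 6865, 5605, 3430.3 and 4385 (arrays in the order given for Gfi1), against 1160.3, 2831, 605 and 827 in CD24hi-labelled RNA. The populations did not overlap. The log2 ratios were 2.56, 0.99, 2.50 and 2.41, with a mean of 2.11 ± 0.48 (n = 2; limma, adjusted p = 0.00103). The dye swap of replicate 1 was low, the other arrays lay close together, and without the low array the mean was 2.51. The probe printed above matches 1 unbroken stretch of the genome, so it does not read the junction that the stress sensors make.

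Creb3l1 and Creb3l4, membrane-bound factors of the secretory pathway, were both higher in Lgr5-GFP-labelled RNA. Creb3l1 had signals of 1669, 619 and 1160.2 there on the first array of replicate 1 and both arrays of replicate 2, against 436, 163 and 248 in CD24hi-labelled RNA. Its log2 ratios were 1.94, 1.93 and 2.23, with a mean of 2.01 ± 0.10 (4.02-fold, n = 2; limma, adjusted p = 6.56e-04). The populations did not overlap on these arrays. The spot on the dye swap of replicate 1 was marked and gave no value, and with its mark ignored it had a ratio of 0.10. Creb3l4 had signals of 23090, 18092, 15405 and 21213 in Lgr5-GFP-labelled RNA (order as for Gfi1), against 4724, 5989, 2047 and 2420.1 in CD24hi-labelled RNA. Its log2 ratios were 2.29, 1.59, 2.91 and 3.13, with a mean of 2.48 ± 0.76 (5.59-fold, n = 2; limma, adjusted p = 0.00156), and 2.66 without the dye swap of replicate 1. The populations did not overlap for Creb3l4 either, and of the called factors with a value on that dye swap it had the highest ratio there.

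Bhlha15 was 5.18-fold higher in Lgr5-GFP-labelled RNA by its brighter probe, which starts at position 3358 of the transcript. The signals of that probe were 1101, 1013 and 1398 there on the first array of replicate 1 and both arrays of replicate 2, against 305, 144 and 178 in CD24hi-labelled RNA. Its log2 ratios were 1.85, 2.81 and 2.97, with a mean of 2.37 ± 0.74 (n = 2; limma, adjusted p = 0.00162). The populations did not overlap for this probe on these arrays. Its spot on the dye swap of replicate 1 was marked and gave no value, and with the mark ignored it had a ratio of 0.25. The other probe, printed above, had signals of 133, 106 and 115 in Lgr5-GFP-labelled RNA, against 118, 92.9 and 112 in CD24hi-labelled RNA, and log2 ratios of 0.17, 0.19 and 0.04. The populations overlapped. On the first array of replicate 1 its mean signals before any correction were 139 and 231 in these RNAs, where the median gene spot had 109 and 197. Put in place of the brighter probe, a choice made after the data were seen, it left Bhlha15 at 0.15 ± 0.04 and not called (limma, adjusted p = 0.370).

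Of the 3 Foxa factors, which share a forkhead domain and open chromatin for other factors, Foxa1 and Foxa3 were called and Foxa2 was not, and the differences among them were not tested. Foxa3 was 2.71-fold higher in Lgr5-GFP-labelled RNA, with signals of 2301, 2482, 1748.5 and 1761 there (order as for Gfi1), against 803, 1836, 462 and 478 in CD24hi-labelled RNA. Its log2 ratios were 1.52, 0.44, 1.92 and 1.88, with a mean of 1.44 ± 0.65 (n = 2; limma, adjusted p = 0.00515), and 1.71 without the dye swap of replicate 1. On that array the CD24hi signal lay within the range of the Lgr5-GFP signals of all arrays, but was below the Lgr5-GFP signal of the same array. Foxa1 was 1.62-fold higher, with signals of 644, 392.3 and 424 in Lgr5-GFP-labelled RNA on the first array of replicate 1 and both arrays of replicate 2, against 391, 235 and 279.9 in CD24hi-labelled RNA. Its log2 ratios were 0.72, 0.74 and 0.60, with a mean of 0.69 ± 0.03 (n = 2; limma, adjusted p = 0.00683). The ratios on these arrays were close together and above 0. Across arrays, which differ in brightness, the lowest Lgr5-GFP signal only just exceeded the highest CD24hi signal. The Foxa1 spot on the dye swap of replicate 1 was marked and gave no value, so replicate 1 is not dye-balanced for this gene. Read with its mark ignored, that spot had a ratio of -0.02. The call of Foxa1 was lost with marked spots kept (0.51, limma, adjusted p = 0.0779) and with arrays only centred on their median (0.40, limma, adjusted p = 0.0585).

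Foxa2, the factor that was not called, was printed on the array as 10 spots. Its mean signals were 6289.7, 4807, 3424 and 5074 in Lgr5-GFP-labelled RNA (order as for Gfi1), against 5090.3, 7491, 3124 and 5199.7 in CD24hi-labelled RNA. The populations overlapped, and the sign differed between the first arrays and the dye swaps. Its log2 ratios were 0.31, -0.64, 0.13 and -0.04, and the mean was -0.06 ± 0.15 (n = 2; limma, adjusted p = 0.740), with a 95% interval of 0.32 on either side. Spots within an array spread less than the arrays did: they ran from 0.19 to 0.51 and from -0.72 to -0.56 on the arrays of replicate 1, and from 0.01 to 0.27 and from -0.17 to 0.04 on those of replicate 2. Without the dye swap of replicate 1 its ratio was 0.18 and still not called (limma, adjusted p = 0.242).

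The genes whose ratio was most like that of Atoh1, by root mean square difference over 3 arrays among 13748 genes, were Cmah, which encodes a sialic acid hydroxylase (0.03), Ttc39a (0.03) and Lrrc26, a potassium channel subunit (0.06). Ttc39a and Lrrc26 had values of 0.74 and 0.83 on the dye swap of replicate 1, where Atoh1 had none. The nearest to Spdef, among 4809 genes with a value on the same 3 arrays, were Plpp1, a phospholipid phosphatase (0.11), Kcne2, a potassium channel subunit (0.16), and Ern2 (0.21), with log2 ratios of 2.68, 2.69 and 2.57.

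Genes around these factors in the same pathways were counted next, from lists set by known function but with earlier results of these data known. Of 9 Notch pathway genes, 5 were lower and 1 was higher in Lgr5-GFP-labelled RNA, with a median log2 ratio of -0.49. Hes1, the repressor of Atoh1, was lower at -1.51 ± 0.09, on arrays at -1.57, -1.29 and -1.60 (limma, adjusted p = 8.79e-04). The receptor Notch1 was lower at -1.31 ± 0.29 and the repressor Hes5 at -1.09 ± 0.22. Notch1 was the less even of these, with -2.42 and 0.20 on the arrays of replicate 1 (the dye swap second) and -1.33 and -1.70 on those of replicate 2, and without that dye swap its log2 ratio was -1.97. Its call was lost without the first array of replicate 1. The ligand Dll4, named after its value was seen, was higher at 0.70 ± 0.10 (limma, adjusted p = 0.00720), a call lost with marked spots kept and with arrays centred on their median. The receptor Notch2 was nearest to 0 at 0.02 by its brightest probe and was at -0.90 by its other probe. Without the dye swap of replicate 1 the other probe stood for the gene, at -1.20 and called lower (limma, adjusted p = 4.92e-04), and 7 of 9 Notch genes were then lower. Without the first array of replicate 1, 2 Notch genes could be tested and 0 were called.

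Of 7 partners and inhibitors of bHLH factors such as Atoh1 and Bhlha15, 5 were lower and 1 was higher in Lgr5-GFP-labelled RNA, with a median of -0.96. The Id proteins bind E proteins and so keep bHLH factors from DNA. Id1 was lower at -2.31 ± 0.11 (limma, adjusted p = 6.03e-04) and Id3 at -1.54 ± 0.11, as was Id2, while Id4 was higher at 1.24 ± 0.21 (limma, adjusted p = 0.00175), a call lost with marked spots kept. Of the E proteins, Tcf3 (-0.96) and Tcf4 were lower and Tcf12 was not called (-0.24). The other probe of Tcf3 gave -0.31, with values just above 0 on the arrays of replicate 2, and other probes of Tcf12 gave 0.50 and -0.30. The call of Tcf3 was lost when replicate 1 was left to its dye swap, and 2 of 4 genes of this list were then lower. Id2, Tcf3 and Tcf4 were named after their values were seen. Of 4 corepressors of Gfi1, the demethylase gene Kdm1a (-0.90 ± 0.05, limma, adjusted p = 0.00309) and its partner Rcor1 (-0.76 ± 0.14) were lower, and Hdac1 was nearest to 0 (0.04). The share called, 50%, was close to the 47.2% called of all genes tested. Other probes of Rcor1 gave 0.03 and -0.37, and its call was lost when probes were averaged.

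Relatives of the factors were mixed. Of 6 ETS, Gfi1 and CREB3 family relatives tested of 7 listed, 3 were higher and 1 was lower, with a median of 0.31. Creb3 was higher at 1.49 ± 0.58 (limma, adjusted p = 0.00360), the ETS factor Ehf at 1.13 ± 0.08 (other probes 0.55 and 0.56) and Gfi1b, the paralog of Gfi1, at 0.54 ± 0.12. Creb3l3 was nearest to 0 (0.07), and the ETS factor Elf3, named after its value was seen, was lower (-0.44). The calls of Ehf, Gfi1b and Elf3 were each lost under several settings, among them marked spots kept. Of 7 other secretory lineage factors tested of 10 listed, Isl1, an enteroendocrine factor, was higher at 0.84 ± 0.67 (limma, adjusted p = 0.0319) and 0 were lower. Its ratio was 0.37 in replicate 1, against 1.27 and 1.34 on the arrays of replicate 2. It was called in 10 of 15 other settings. The call was lost with no background subtraction, with marked spots kept and with no filter on dim probes, among others. Sox9 was nearest to 0 (-0.04) by its brightest probe, while its other probes gave 0.52 and 0.55. Its sign depended on the setting, from -0.24 to 0.65, and with the first arrays alone it was called higher.

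**Figure D3:**
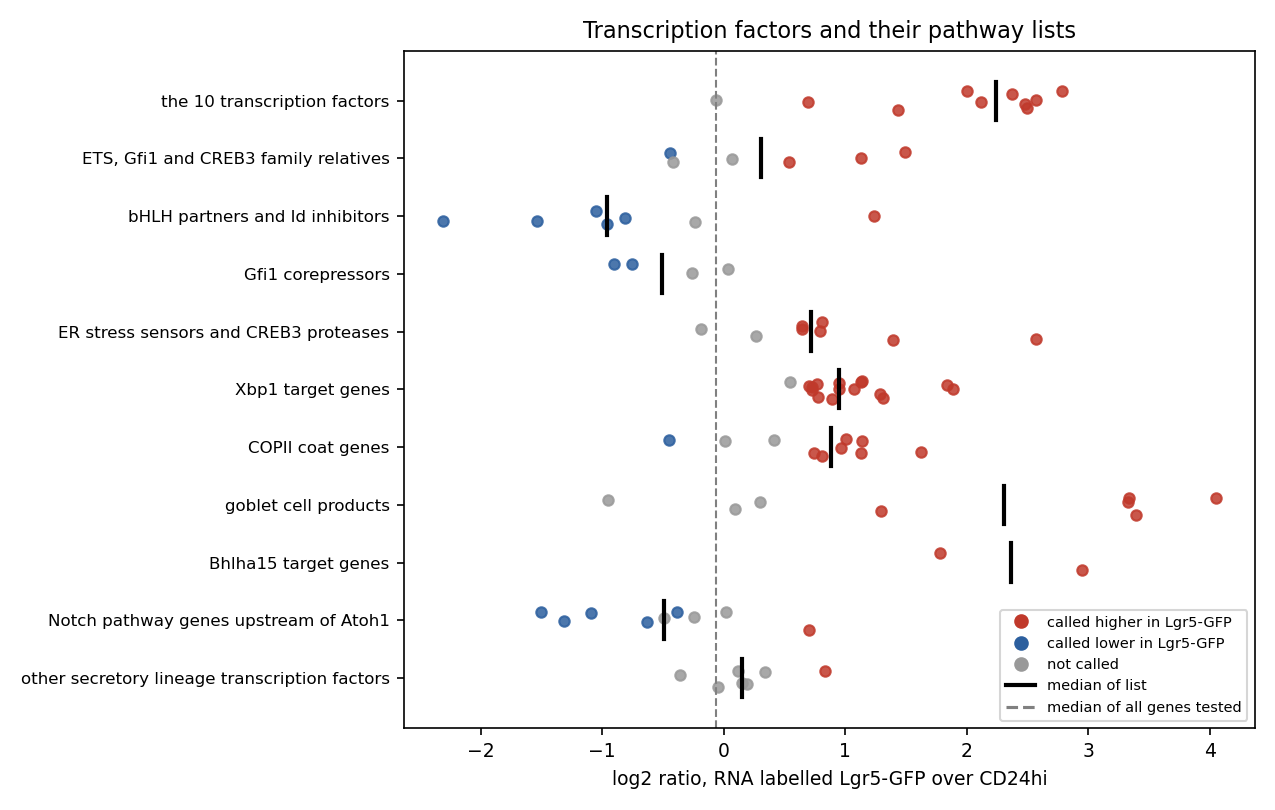
Each point is the log2 ratio of 1 tested gene, Lgr5-GFP-labelled RNA over CD24hi-labelled RNA (horizontal axis), for the 10 transcription factors and the pathway lists, coloured by limma's call; black bars are list medians and the dashed line is the median of all genes. The factors (2.24) lie above the Xbp1 targets (0.95), and the bHLH partners and inhibitors (-0.96) and Notch genes (-0.49) lie on the other side of 0.

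The genes that Xbp1 and its relatives act on were mostly higher in Lgr5-GFP-labelled RNA, whose sort markers contradict its label. Of 16 known Xbp1 targets, 15 were higher and 0 lower, with a median of 0.95. Dnajc3, an ER co-chaperone, had 1.89 ± 0.11 (limma, adjusted p = 6.89e-04), Sec24d, a COPII cargo adaptor, 1.84 ± 0.55 and Herpud1, a part of ER-associated degradation, 1.31 ± 0.40. Dnajc3 had no value on the dye swap of replicate 1, where Sec24d had 0.96 and Herpud1 0.63. Without that array Sec24d was at 2.09, Dnajc3 at 1.79 by another probe, and Herpud1 at 1.51. The target that was not called was Hspa5, which encodes the chaperone BiP, at 0.55 ± 0.60. Its ratio was -0.36 on the dye swap of replicate 1 and 0.61 or more on the other arrays (limma, adjusted p = 0.0895), and without the dye swap of replicate 1 it was called at 0.79 (limma, adjusted p = 0.00173). Without the first array of replicate 1, which leaves that replicate to its dye swap, 6 of 15 targets were called, and with marked spots kept 6 of 16.

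Of 8 ER stress sensors and CREB3 proteases tested of 9 listed, 6 were higher and 0 lower, with a median of 0.72. The count was 2 of 5 without the first array of replicate 1 and 3 of 8 with marked spots kept. Ern2, the Ire1 beta of mucous cells, had 2.57 ± 1.08 (limma, adjusted p = 0.00310), with 2.61, 0.99, 3.24 and 3.43 on the arrays. Eif2ak3, which encodes the sensor Perk, had 1.39 ± 0.31 by its brightest probe and -0.07 by its other one. Atf6 had 0.81 ± 0.46, and the protease gene Mbtps1 was nearest to 0 (-0.19, not called). Of 10 genes of the COPII coat, which carries cargo out of the ER, 7 were higher and 1 was lower (median 0.88). Sec16a had 1.63 ± 0.40 (limma, adjusted p = 0.00157), Sar1a 1.13 ± 0.35 and Sec23b 1.13 ± 0.68, while Sec23a was nearest to 0 (0.01). Sec24b, named after its value was seen, was lower at -0.45 ± 0.18 (limma, adjusted p = 0.0373), a call lost with the processed signals and also with the authors' series values. The calls of Atf6 and Sec23b were lost with marked spots kept. When the first array of replicate 1 was left out, 2 of 9 COPII genes were higher, and with marked spots kept 3 of 10.

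Of the 3 genes listed as Bhlha15 targets in exocrine cells of the mouse, the pair tested was higher: Atp2c2, a secretory pathway calcium pump, at 2.95 ± 0.82 (limma, adjusted p = 0.00115) and Rab3d, a granule GTPase, at 1.78 ± 0.74. Of 8 goblet cell products, 5 were higher and 0 lower, with a median of 2.31. Retnlb, a resistin-like secreted protein, had 4.05 ± 0.88 (limma, adjusted p = 7.25e-04), Muc2 3.39 ± 1.12 and Spink4, a protease inhibitor, 3.33 ± 1.08. Fcgbp, a mucus protein, was nearest to 0 (0.10), with -0.41 in replicate 1 against 0.64 and 0.58 on the arrays of replicate 2. The trefoil peptide gene Tff3, named after its value was seen, had -0.95 ± 1.13 and was not called (limma, adjusted p = 0.0775). Over 18 other settings it ran from -1.17 to -0.73 and was called lower in 5. Among these was the setting without the dye swap of replicate 1 (-0.85, limma, adjusted p = 0.0372).

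Other cell types could hold several of these factors, since Xbp1 and Creb3l1 also serve other secretory cells and the Foxa factors enteroendocrine cells. Of 6 enteroendocrine markers tested of 7 listed, 5 were higher in Lgr5-GFP-labelled RNA (median 2.92), as were 4 of 4 tuft cell markers tested of 5 listed (median 1.67). Their part in the ratios of the 10 factors was not tested. Of 8 plasma cell markers, Sdc1 (-0.17) and Derl3 (-0.16) were bright enough to be tested and neither was called. Of 8 leukocyte markers, Cd3e and Cd68 were tested and neither was called. Of 7 fibroblast markers, Col1a2 was higher at 0.44 and Vim was at 0.36 and not called, and whether each was called changed under several settings. These markers were named after their values were seen. The remaining markers of these last 3 types were not well above background on every usable array in either RNA, and so were not tested. Some passed on part of the arrays. By 1 probe each, Ptprc did in Lgr5-GFP-labelled RNA and Col1a1 in CD24hi-labelled RNA on 3 of 4 arrays, and by their other probes on 0. Mzb1 passed in both RNAs on 2 of 3 arrays.

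Promoter windows of RefSeq (GRCm38.p6, 250 bases before to 50 after each gene start) were found for 9 of the 10 factors, 14 windows in all. They were searched on both strands for motifs chosen with the windows in view: TGACGTG, the element of Xbp1 and Atf6, TGTTTAC, the forkhead core, CAGCTG, an E-box of bHLH factors, and CACNAG, the N-box of Hes factors. TGACGTG was found in 1 window, that of Spdef, against 2.01% of 32851 windows of all genes. TGTTTAC was found in 1, that of Foxa1, against 3.65%. CAGCTG was found in 0, against 16.3%, and CACNAG in 6, among them those of Atoh1 and Xbp1, against 42.48%. A match is a description of the letters and not a site in use. The 250 bases before the starts of Spdef, at chr17:27728952-27729201 (-), and Foxa1, at chr12:57546112-57546361 (-), are shown because each holds 1 of the rarer motifs, in capitals on either strand.
Spdef: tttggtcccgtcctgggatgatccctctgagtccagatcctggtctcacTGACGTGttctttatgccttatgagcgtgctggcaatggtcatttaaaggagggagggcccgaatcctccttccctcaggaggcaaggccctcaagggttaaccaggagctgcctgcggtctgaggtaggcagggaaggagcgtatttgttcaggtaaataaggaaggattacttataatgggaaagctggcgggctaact
Foxa1: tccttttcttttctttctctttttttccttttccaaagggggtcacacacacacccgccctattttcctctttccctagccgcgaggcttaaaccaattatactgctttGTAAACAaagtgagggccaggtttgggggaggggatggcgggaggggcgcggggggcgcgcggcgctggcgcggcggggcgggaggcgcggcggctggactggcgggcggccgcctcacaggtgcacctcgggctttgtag

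**Figure D4:**
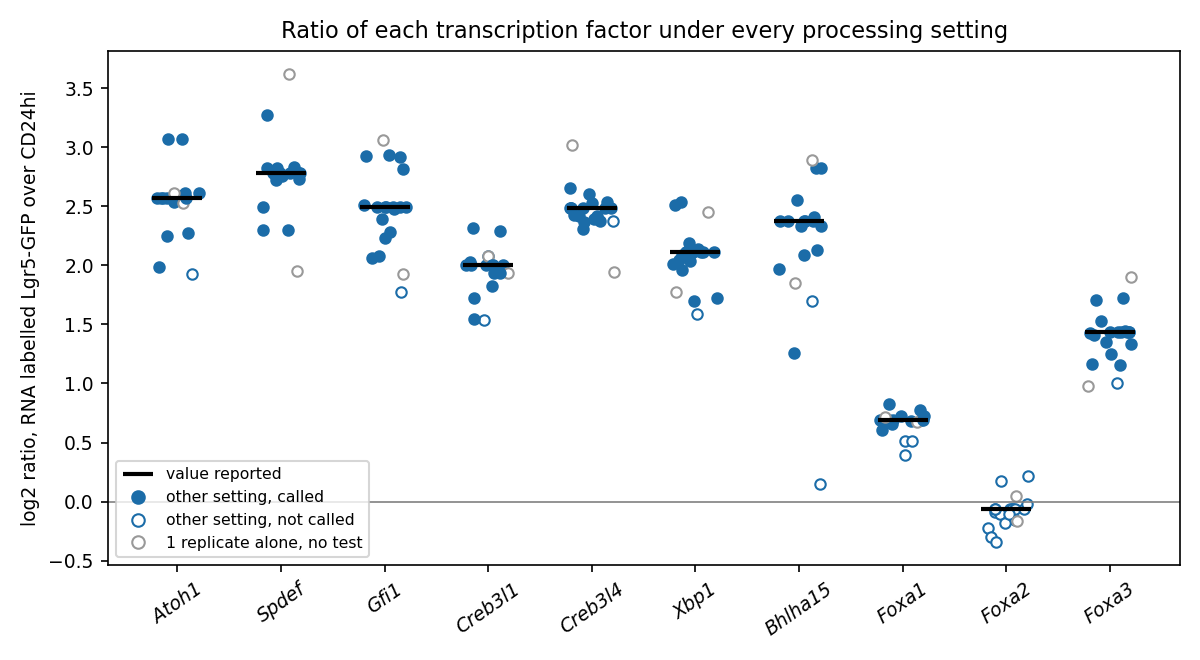
The log2 ratio of Lgr5-GFP-labelled RNA over CD24hi-labelled RNA (vertical axis) of each factor is drawn under every processing setting tried: filled points were called by limma, open blue points were not, grey open points are 1 replicate alone, and the bar is the value reported. The 9 called factors stayed above 0 under every setting, with Bhlha15 reaching 0.15 on its other probe, and Foxa2 ran from -0.34 to 0.22.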

How the data were processed

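Sorted cells of adult mouse colon were measured on 4 Agilent 2-colour arrays. Per the file headers, these were read with Feature Extraction 10.5.1.1. As deposited, intensity values were each spot's mean brightness and median local background in green and red, without normalization, plus processed intensities. The deposited log10 ratio was red over green of the processed values. Values of the deposited series table were read as log2 ratios of red to green, from their slopes on the log10 ratios. The slopes were 3.21 and 2.84 on the arrays of replicate 1 (the dye swap second) and 3.19 and 3.29 on those of replicate 2. The correlation was r of 0.912 to 0.987 across probes. Column medians were -0.01, 0.03, -0.01 and -0.01, and dye swaps were left unturned. How that table was normalized is not given in the sources.

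Background was corrected with normexp (offset 50) in limma 3.58.1 (R 4.3.3), after leaving out non-uniform local backgrounds, and arrays were normalized by global loess. Control spots and spots marked as outliers in feature or background were left out. Ratios were turned to Lgr5-GFP over CD24hi, each array and its swap were averaged to 1 value per replicate (n = 2), and limma tested these against 0, 2-sided, with 1 residual and 4.54 prior degrees of freedom. P-values were adjusted by Benjamini-Hochberg over all 14645 genes. Normalised signals are the channel values after these steps. A probe was kept if well above background on every array with a usable spot in at least 1 RNA, and the brightest kept probe stood for a gene. Of the gene spots, 27041 took their name from a RefSeq table (GRCm38.p6, names only) and 16338 retained that of the file. Bhlha15 is written BhlhA15 in the files. The 2 replicates lay on different slides, and their effects cannot be told apart. The number of arrays limits the precision, and no spot was saturated.

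Named were all 10 factors with every probe, and of each list the 3 called genes with the largest ratio in size and the 1 nearest 0, with exceptions said to be chosen afterwards. For likeness, the 3 genes nearest to Atoh1 and Spdef were taken over at least 3 arrays. The members, lists and the handling of marked spots and backgrounds were chosen with earlier results of these data known. The fit was run on simulated independent ratios whose spread was drawn from its own prior. Those data hold no faulty array and no marked spots, so they do not test how such faults affect the calls. The closing section gives the effect of other background corrections, normalizations, filters, probe choices and arrays.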

Additional observations from a re-analysis of the deposited data

Results flagged for a closer look

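Of the 5 factors with a value on all 4 arrays, Gfi1 and Xbp1 each had 1 array far from the others. On the dye swap of replicate 1 the log2 ratio, Lgr5-GFP-labelled over CD24hi-labelled RNA, was 1.05 for Gfi1, a gap of 0.853 of its whole range. On the same array it was 0.99 for Xbp1, a gap of 0.899. Both exceed Dixon's critical value for 4 values, which chance passes in about 1 of 20 groups of independent values. The arrays here are pairs of a first array and its dye swap, and all factors share them. That rate therefore need not hold, and the flags of Gfi1 and Xbp1 are not separate events. Foxa3 (0.44) and Foxa2 (-0.64) were also lowest on that array, with gaps of 0.731 and 0.640, and Creb3l4 with 0.452. That array had 75.92% of its gene spots marked as outliers, and its part in these values was not tested.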

How the results depend on the processing

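Over the settings run, 159 tested values of single factors stayed on their side of the threshold, 12 calls were lost, and 0 called ratios changed sign. Non-uniform backgrounds kept in the background fit gave 0 genes called by limma (5190 had an unadjusted p under 0.05, and the smallest adjusted p was 0.0755) and 0 factors, with all 9 ratios still above 0. Marked spots kept gave 3731 genes and 8 factors. The dye swaps alone gave 959 of 6008 genes and 5 of 6 factors. Leaving out 1 array at a time gave 949 to 8401 genes and 5 to 9 factors higher; the low ends leave out the first array of replicate 1, with 5899 genes and 6 factors left to test. Arrays centred on their median gave 7397 genes, of which 29% were higher against 46.1%, moved the median of all genes to -0.25 and called 8 factors. The other settings stayed within 1.5 times of 6919 genes. Beside Foxa1 and the other probe of Bhlha15, both given above, no call of a factor was lost outside the first of these settings. Each ratio already pairs both RNAs on 1 array, so the main test is paired by array and no further pairing was added. That is a pairing of hybridisation and tells nothing of the animals. With the 4 arrays as units and replicate as a random block (correlation -0.03), limma called 8057 genes and 9 factors. Spots with a marked local background kept (7051 genes, 9 factors) and the other probe of Bhlha15 were chosen after seeing the data. The brightness of dim probes limits what can be tested.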
